A study of Homo sapiens with 12 samples.

Results

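Small nucleolar RNA (snoRNA) host transcripts are longer RNAs whose introns carry snoRNAs. The 10 noncoding host genes described here are GAS5, SNHG1, SNHG5, SNHG6, SNHG7, SNHG8, SNHG12, SNHG15, SNHG16 and ZFAS1. They were taken by symbol from the count tables of both cell lines, which together list 18304 genes, and all 10 passed the filter on low counts in both lines. OCI-AML2 and MOLM-13 are established human acute myeloid leukaemia lines. The 4 groups were OCI-AML2 cells with 200 nM selinexor, OCI-AML2 cells with vehicle (DMSO), MOLM-13 cells with 75 nM selinexor and MOLM-13 cells with vehicle. Selinexor is an inhibitor of XPO1, the receptor that carries proteins and some RNAs out of the nucleus. Treatment lasted 36 h, polyadenylated RNA was sequenced without keeping the strand, and each group had 3 libraries, which the series' design text calls independent. Each line had its own dose, so line and dose cannot be told apart.

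After splicing of a host transcript, its excised introns are trimmed to snoRNAs. Box C/D snoRNAs guide ribose methylation of ribosomal RNA, and box H/ACA snoRNAs guide its pseudouridylation. The spliced host that remains often has short or no conserved reading frames, and several hosts, GAS5 among them, are known to be removed by nonsense-mediated decay when they are translated. Many hosts begin, like the mRNAs of ribosomal proteins, with a C followed by a run of C and U, the terminal oligopyrimidine (TOP) feature, through which translation answers to growth signals. Polyadenylated libraries measure the spliced hosts and not the snoRNAs. Rows with snoRNA symbols numbered 95 in the OCI-AML2 table and 98 in the MOLM-13 table and held 0.00207% and 0.00224% of all counts, and those with most reads in each line were SNORD17, SNORD104 and SNORA73B.

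Sequences around the annotated starts are shown because the TOP feature is what is known to join these hosts to ribosomal protein genes. Starts from RefSeq (GRCh38.p14) were read for 8 of the 10 hosts. Those of SNHG6 and SNHG15 were not read, and these hosts are named only. Each line gives 55 bases of the sense strand, with 25 bases before the start base, which is the 26th letter. Capitals mark the longest run of at least 5 C and T letters read from a C within 10 bases of the start. Letters further upstream were not read. In SNHG7 the C and T letters reach further upstream than these 10 bases, and the run ends before the start base.
GAS5: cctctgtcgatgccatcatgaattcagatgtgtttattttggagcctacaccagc
SNHG1: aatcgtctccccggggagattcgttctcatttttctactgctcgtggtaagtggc
SNHG5: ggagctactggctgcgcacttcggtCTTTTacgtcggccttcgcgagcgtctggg
SNHG16: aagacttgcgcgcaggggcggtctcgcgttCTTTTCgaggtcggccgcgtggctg
ZFAS1: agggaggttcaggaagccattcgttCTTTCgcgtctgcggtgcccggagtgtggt
SNHG7: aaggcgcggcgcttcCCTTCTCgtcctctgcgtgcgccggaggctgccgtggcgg
SNHG8: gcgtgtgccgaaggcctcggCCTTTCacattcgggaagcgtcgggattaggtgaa
SNHG12: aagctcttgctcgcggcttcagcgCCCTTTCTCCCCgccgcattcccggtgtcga

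The windows lie at chr1:173869016-173869070 (GAS5, minus strand), chr11:62855856-62855910 (SNHG1, minus), chr6:85678704-85678758 (SNHG5, minus), chr17:76557739-76557793 (SNHG16, plus), chr20:49278617-49278671 (ZFAS1, plus), chr9:136728155-136728209 (SNHG7, minus), chr4:118278737-118278791 (SNHG8, plus) and chr1:28581844-28581898 (SNHG12, minus). Such a run, with its letters read by the same rule in all genes, was present in 6 of the 8 hosts (75%). The 6 include SNHG7, whose run is cut at the edge of the 10 bases. Among the 9872 tested genes with a promoter entry the share was 41.8%. SNHG6 was left out of the hosts by its chromosome, and the tested genes were not limited in that way. On the opposite strand, searched the same way, the shares were 37.5% of the 8 hosts and 39.7% of the tested genes. A run of 5 letters that could be read from the start base itself was found in SNHG5, SNHG12 and ZFAS1, which is 37.5% of the 8 hosts and 7.49% of tested genes. This stricter reading was added after the data were seen. By the same readings, 93.8% and 75% of 16 ribosomal protein hosts had the run within 10 bases and at the start base. The letters CACGTG, which read the same on both strands, occurred within the 300 bases around the start of SNHG7 alone among the 8, against 12.7% of tested genes. The outermost GENCODE 29 start lay 163 bases from the RefSeq start of GAS5, 464 bases from that of ZFAS1 and 1259 bases from that of SNHG12, and the tables used here do not show which start the cells use.

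Total counts per library were 8114892 to 11769061, and levels are given as CPM, counts scaled to the library's size. A floor of 3 counts was worth 0.255 to 0.370 CPM, for counting error only. The 10 hosts held 0.176 to 0.187% of counts in selinexor and 0.158 to 0.177% in vehicle libraries of OCI-AML2, and 0.209 to 0.212% in selinexor and 0.178 to 0.180% in vehicle libraries of MOLM-13. Vehicle library 2 of OCI-AML2 stood apart. In it 53 of 9080 genes were lower, and 44 higher, by more than 0.5 on the log2 scale than the mean of the other libraries of its group, against at most 27 and 35 in any other OCI-AML2 library. GAS5, SNHG5, SNHG6, SNHG8 and ZFAS1 were each lowest of the OCI-AML2 vehicle group in that library, by a wide gap for SNHG8 and ZFAS1. Values without it are given beside the results it moved. All 10 myeloid markers examined were detected in both lines. Their summed level was 11351 to 11658 CPM with selinexor and 3141 to 3350 CPM with vehicle in OCI-AML2, and 3053 to 3097 CPM with selinexor and 1408 to 1433 CPM with vehicle in MOLM-13. The list did not move as one. In OCI-AML2, 7 of the 10 markers rose, LYZ by 5.52-fold, while MPO fell (-0.53, adjusted p = 0.00252) and CD33 and CSF1R were not called. In MOLM-13, 8 rose, LYZ by 8.25-fold, and PTPRC and CSF1R were not called. Of markers of other cell types, CD3E, MS4A1, EPCAM and HBB had no counts in any group. The summed lymphoid markers had 91.9 to 95.6 CPM with selinexor and 58.4 to 62.0 CPM with vehicle in OCI-AML2, and 103 to 112 CPM with selinexor and 128 to 135 CPM with vehicle in MOLM-13. The summed erythroid and megakaryocyte markers had 12.4 to 15.7 CPM with selinexor and 1.09 to 1.78 CPM with vehicle in OCI-AML2, where ITGA2B was 10.0-fold higher, and at most 1.14 CPM in any MOLM-13 library. The summed epithelial and fibroblast markers had 9.48 to 15.8 CPM with selinexor and 4.17 to 4.75 CPM with vehicle in MOLM-13, where KRT18 was 2.63-fold higher, and at most 0.818 CPM with selinexor and 4.59 CPM with vehicle in OCI-AML2. The part of these shifts in the results below was not tested, and in bulk RNA fewer cells of a kind and less RNA per cell cannot be told apart.

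Selinexor moved the 10 hosts in both directions, and not in the same way in the lines. In OCI-AML2, GAS5, SNHG5, SNHG6 and SNHG8 rose and SNHG1, SNHG7, SNHG12, SNHG15 and SNHG16 fell, while ZFAS1 did not pass the test. In MOLM-13, 7 hosts rose, namely GAS5, SNHG5, SNHG6, SNHG8, SNHG12, SNHG15 and ZFAS1, and SNHG1, SNHG7 and SNHG16 fell. Calls were made with the quasi-likelihood test of edgeR at an adjusted p under 0.05 (Benjamini-Hochberg, over all tested genes of a line). In OCI-AML2 it called 9 of the 10 hosts, where 63.1% of the 12086 tested genes were called (31.3% higher and 31.8% lower). In MOLM-13 it called 10 of 10, where 63.6% of 11807 tested genes were called (31.8% higher and 31.8% lower). The median log2 fold change of the 10 hosts was -0.01 in OCI-AML2 and 0.25 in MOLM-13, beside 0.00 and 0.01 for all tested genes.

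**Figure D1:**
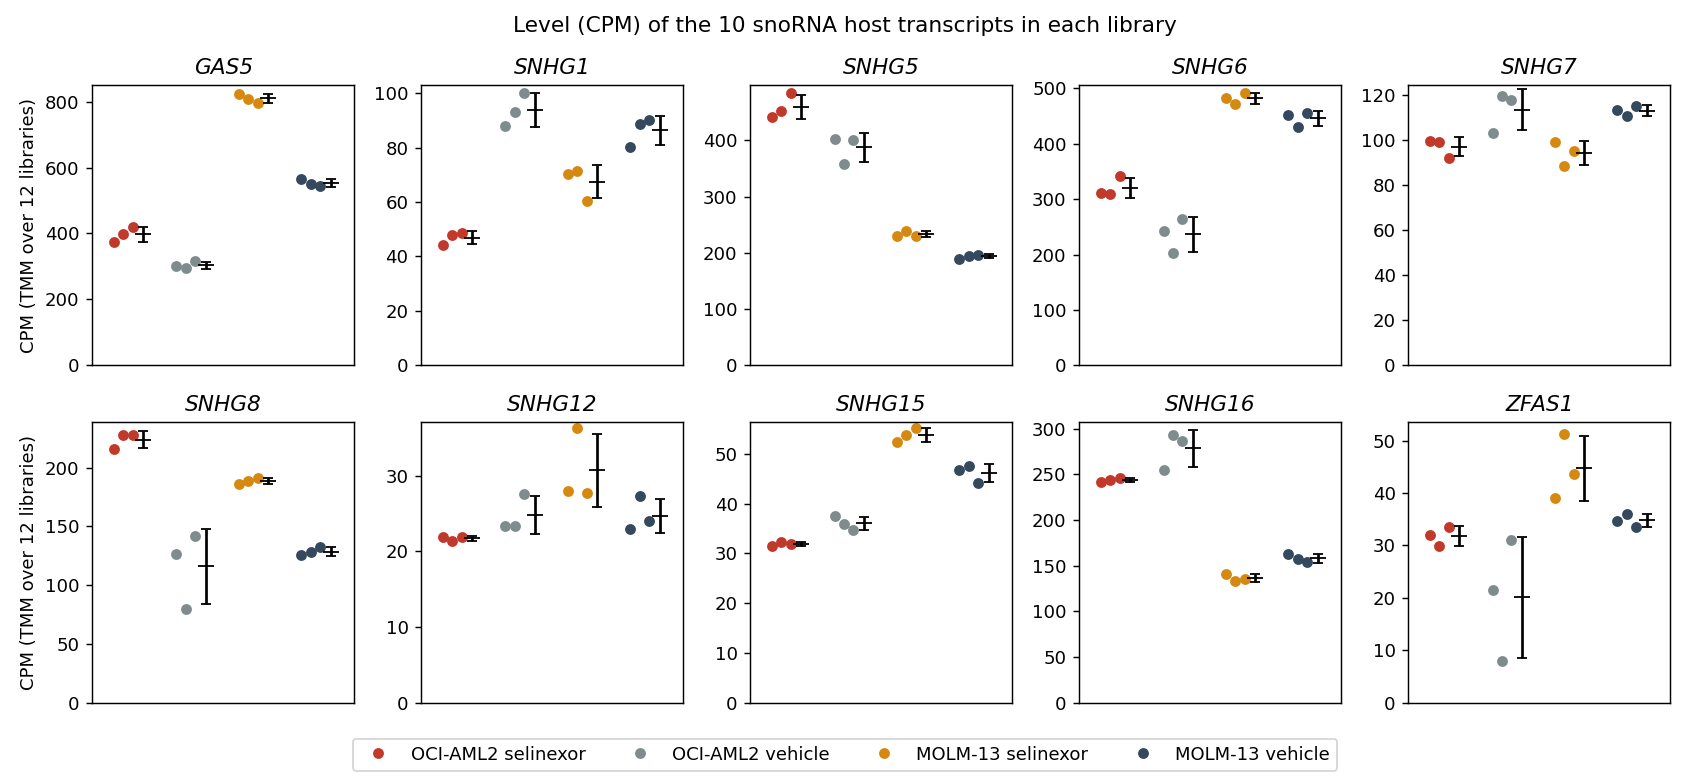
Level of each of the 10 hosts in each of the 12 libraries, in CPM with TMM scaling over all libraries, with 1 panel per gene and axes from 0. Coloured points are libraries, and the black dash and bar beside them give the mean and SD (n = 3); the low point of OCI-AML2 vehicle library 2 is visible for SNHG8 (80.1 CPM) and ZFAS1 (7.91 CPM).

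Among the hosts of box C/D snoRNAs, GAS5, SNHG5, SNHG6 and ZFAS1 were higher on average with selinexor in both lines, and SNHG1 and SNHG16 were lower. GENCODE 29 places 0 snoRNA genes inside GAS5 on its strand, so GAS5 is placed here as a known box C/D host. GAS5 is a growth arrest-specific transcript, known to accumulate when cells stop dividing and to bind the glucocorticoid receptor. It had 374, 399 and 419 CPM in OCI-AML2 selinexor libraries, against 300, 296 and 316 CPM in OCI-AML2 vehicle libraries. In MOLM-13 it had 824, 809 and 796 CPM with selinexor, against 566, 550 and 544 CPM with vehicle. No selinexor library overlapped a vehicle library in either line. The log2 fold changes were 0.34 ± 0.04 (SE) in OCI-AML2 (1.27-fold, adjusted p = 2.37e-09) and 0.55 ± 0.03 in MOLM-13 (1.47-fold, adjusted p = 7.97e-30).

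SNHG1 carries 7 annotated snoRNA genes within its span, SNORD22 and SNORD25 to SNORD28 among them, and had the largest fall of the 10 hosts in each line. It had 44.4, 48.0 and 48.6 CPM in OCI-AML2 selinexor libraries, against 87.8, 93.2 and 100.3 CPM in OCI-AML2 vehicle libraries. MOLM-13 selinexor libraries had 70.4, 71.5 and 60.5 CPM, against 80.4, 88.8 and 90.3 CPM in MOLM-13 vehicle libraries. The groups were apart in both lines, by a wide gap in OCI-AML2. SNHG1 was 2.06-fold lower in OCI-AML2 (log2 fold change -1.04 ± 0.07, adjusted p = 6.34e-18) and 1.27-fold lower in MOLM-13 (-0.35 ± 0.06, adjusted p = 7.63e-07).

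SNHG5, host of SNORD50B, had 442, 453 and 484 CPM in OCI-AML2 selinexor libraries, against 403, 358 and 401 CPM in OCI-AML2 vehicle libraries. It had 230, 239 and 229 CPM in MOLM-13 selinexor libraries, against 190, 195 and 197 CPM in MOLM-13 vehicle libraries. The groups were apart in each line, and the change was small in both: 0.21 ± 0.04 in OCI-AML2 (adjusted p = 0.000103) and 0.27 ± 0.04 in MOLM-13 (adjusted p = 1.03e-08). SNHG16, host of SNORD1A, SNORD1B and SNORD1C, moved the other way. Its levels were 242, 244 and 246 CPM in OCI-AML2 selinexor libraries, against 255, 294 and 286 CPM in OCI-AML2 vehicle libraries. In MOLM-13 they were 141, 133 and 136 CPM with selinexor, against 163, 157 and 154 CPM with vehicle. Every selinexor library lay below every vehicle library of its line, with log2 fold changes of -0.23 ± 0.04 (adjusted p = 1.72e-05) and -0.20 ± 0.05 (adjusted p = 8.86e-05) in OCI-AML2 and MOLM-13.

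SNHG6, host of SNORD87 on chromosome 8, had 310.4, 309.7 and 342 CPM in OCI-AML2 selinexor libraries, against 243, 203 and 264 CPM in OCI-AML2 vehicle libraries. In MOLM-13 it had 482, 473 and 492 CPM with selinexor, against 453, 430.0 and 455 CPM with vehicle. The groups were apart in both lines, but in MOLM-13 the gap was narrow. The log2 fold change was 0.40 ± 0.11 in OCI-AML2 (adjusted p = 0.032) and 0.12 ± 0.03 in MOLM-13 (adjusted p = 0.00189). Without vehicle library 2 the OCI-AML2 value was 0.29 (adjusted p = 3.14e-09). Without vehicle library 1 or any one selinexor library of OCI-AML2 its adjusted p lay between 0.0723 and 0.0918, and in the joint fit of 12 libraries the MOLM-13 adjusted p was 0.263.

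ZFAS1, host of the SNORD12 family, was the only host that did not pass the test in a line. It had 32.1, 29.8 and 33.6 CPM in OCI-AML2 selinexor libraries, against 21.5, 7.91 and 31.0 CPM in OCI-AML2 vehicle libraries. The vehicle libraries spread more widely for their mean than in any other host, and the third lay among the selinexor libraries. Its log2 fold change in OCI-AML2 was 0.63 ± 0.50 (adjusted p = 0.337), and without vehicle library 2 it was 0.22 (adjusted p = 0.0593), while limma voom gave 0.87 with an adjusted p of 0.00767. In MOLM-13 the levels were 39.1, 51.3 and 43.6 CPM with selinexor, against 34.7, 36.1 and 33.5 CPM with vehicle, with no overlap. There ZFAS1 rose by 0.37 ± 0.08 (adjusted p = 7.17e-05), a call that the joint fit of 12 libraries did not make (adjusted p = 0.383).

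The hosts of box H/ACA snoRNAs are SNHG7, SNHG8, SNHG12, which also holds a box C/D snoRNA, and SNHG15. SNHG8 rose in both lines and SNHG7 fell in both, while SNHG12 and SNHG15 had opposite directions in the lines. SNHG8, host of SNORA24, had 216, 228 and 228 CPM in OCI-AML2 selinexor libraries, against 127, 80.1 and 142 CPM in OCI-AML2 vehicle libraries. In MOLM-13 it had 186, 188 and 191 CPM with selinexor, against 125, 128 and 132 CPM with vehicle. The groups lay far apart in both lines, and vehicle library 2 was the lowest in OCI-AML2. SNHG8 was 1.88-fold higher in OCI-AML2 (log2 fold change 0.91 ± 0.23, adjusted p = 0.0261) and 1.47-fold higher in MOLM-13 (0.56 ± 0.05, adjusted p = 2.58e-20). Without vehicle library 2 its OCI-AML2 value was 0.69 (adjusted p = 1.01e-25), and without vehicle library 1 or any one selinexor library the adjusted p lay between 0.0651 and 0.0825.

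SNHG7, host of SNORA17A and SNORA17B, had 99.8, 99.4 and 92.2 CPM in OCI-AML2 selinexor libraries, against 103, 119.9 and 118 CPM in OCI-AML2 vehicle libraries. Its levels in MOLM-13 were 99.2, 88.5 and 95.3 CPM with selinexor, against 113, 111 and 116 CPM with vehicle. It was lower in every selinexor library than in every vehicle library of its line, by 1.21-fold in OCI-AML2 (-0.27 ± 0.06, adjusted p = 7.99e-05) and 1.20-fold in MOLM-13 (-0.26 ± 0.05, adjusted p = 1.62e-05).

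SNHG12 holds SNORA16A, SNORA44, SNORA61 and SNORD99. It had 21.9, 21.3 and 21.9 CPM in OCI-AML2 selinexor libraries, against 23.3, 23.3 and 27.6 CPM in OCI-AML2 vehicle libraries. MOLM-13 selinexor libraries had 28.0, 36.3 and 27.7 CPM, against 22.9, 27.2 and 23.9 CPM in MOLM-13 vehicle libraries. The groups did not overlap in either line, though they came within 2 CPM of each other in both. The log2 fold change was -0.23 ± 0.10 in OCI-AML2 (adjusted p = 0.0408) and 0.32 ± 0.10 in MOLM-13 (adjusted p = 0.00288). The OCI-AML2 call ended with upper quartile scaling (adjusted p = 0.119), with DESeq2's test (0.108), in the joint fit (0.103), without any one selinexor library (0.0689 to 0.102) and without vehicle library 3 (-0.15, adjusted p = 0.255). The MOLM-13 call ended without selinexor library 2, the highest one (0.18, adjusted p = 0.157).

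SNHG15, host of SNORA9, had 31.5, 32.3 and 31.8 CPM in OCI-AML2 selinexor libraries, against 37.5, 35.9 and 34.7 CPM in OCI-AML2 vehicle libraries. In MOLM-13 it had 52.3, 53.9 and 55.2 CPM with selinexor, against 46.9, 47.5 and 44.1 CPM with vehicle. Selinexor libraries thus lay below all vehicle libraries in OCI-AML2 and above all of them in MOLM-13. The log2 fold change was -0.22 ± 0.08 in OCI-AML2 (adjusted p = 0.019) and 0.23 ± 0.07 in MOLM-13 (adjusted p = 0.00503). The OCI-AML2 call ended with upper quartile scaling (adjusted p = 0.0797), with DESeq2's test (0.0592), in the joint fit (0.0514) and without vehicle library 1 (0.0643).

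**Figure D2:**
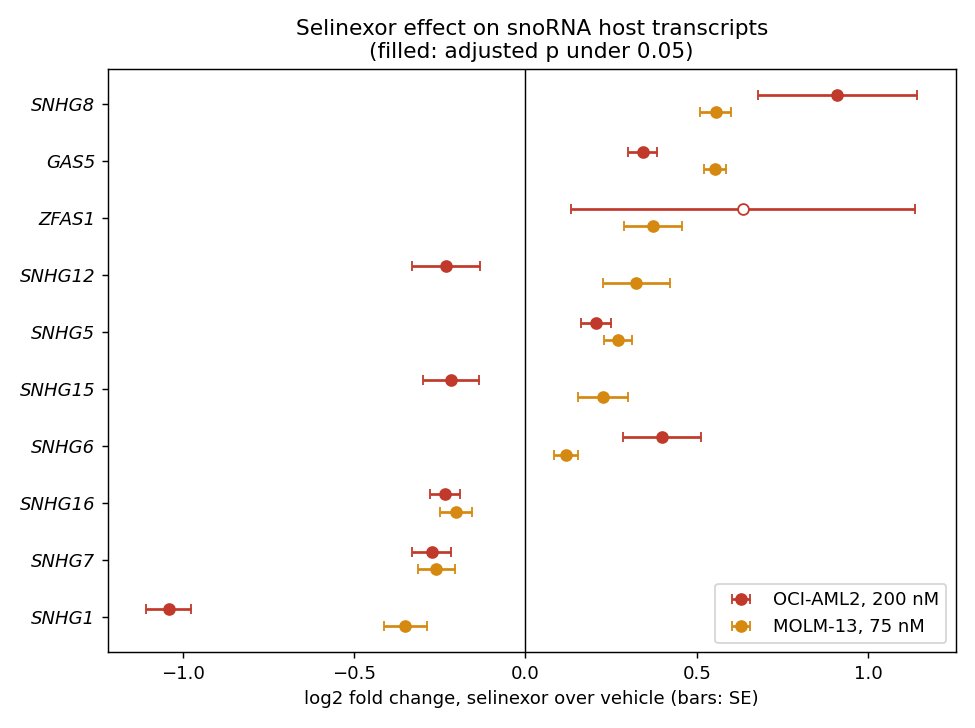
Log2 fold change of each host, selinexor over vehicle, with its SE, in OCI-AML2 (200 nM, upper point) and MOLM-13 (75 nM, lower point); filled points have an adjusted p under 0.05. SNHG12 and SNHG15 lie on opposite sides of 0 in the lines, and SNHG1 reaches -1.04 in OCI-AML2 and -0.35 in MOLM-13.

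Selinexor and vehicle libraries did not overlap for 9 of the 10 hosts in OCI-AML2 and 10 of 10 in MOLM-13, beside 66.3% of tested genes in OCI-AML2 (33% with selinexor above and 33.3% below) and 65.5% in MOLM-13 (32.7% above and 32.8% below). The authors' deposited table for MOLM-13 lists vehicle over selinexor. With its sign turned, it gave log2 fold changes of 0.54 for GAS5 and -0.36 for SNHG1, and all 10 hosts had the direction found here. The table covers the MOLM-13 groups of this same series, so it is a check on processing only and not separate data.

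Whether selinexor acted differently on a host in the lines was tested by a line-by-treatment interaction in the fit of all libraries. It was called for 4 of the 10 hosts, where 30.1% of 12530 tested genes were called, and all 4 were higher in MOLM-13 (11.1% of tested genes were called higher there and 19% lower). SNHG1 fell less in MOLM-13 than in OCI-AML2, with a difference of 0.64 ± 0.09 (SE, log2 scale, adjusted p = 3.08e-08). For SNHG12 the difference was 0.51 ± 0.14 (adjusted p = 0.00396) and for SNHG15 0.40 ± 0.11 (adjusted p = 0.00303), the hosts whose direction was opposite in the lines. GAS5 rose more in MOLM-13, by 0.16 ± 0.05 (adjusted p = 0.017). With 1 library left out, the GAS5 difference ranged from 0.12 to 0.27, with the highest values without OCI-AML2 vehicle library 2 (0.27), OCI-AML2 vehicle library 1 (0.26) and MOLM-13 vehicle library 2 (0.25). It lost its call without selinexor library 1 of OCI-AML2 (0.12, adjusted p = 0.112), without vehicle library 3 of MOLM-13 (0.0545) and without selinexor library 1 of MOLM-13 (0.0502). That of SNHG12 lost its call without selinexor library 2 of MOLM-13 (0.36, adjusted p = 0.0604). Leaving out OCI-AML2 vehicle library 1, 2 or 3, or MOLM-13 vehicle library 2, also shifted the difference over all genes. The median shifts were 0.093, 0.091, 0.092 and 0.091, and they are part of the high GAS5 values.

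Of the called differences over all genes, 36.8% were higher in MOLM-13 with TMM scaling, 49.2% with upper quartile scaling and 53.0% with library size only, and the 4 hosts kept direction and call under both. The difference for SNHG6 was -0.33 ± 0.12 (adjusted p = 0.0606) and for SNHG8 -0.40 ± 0.24 (adjusted p = 0.252), neither called. The limma voom fit called both, with adjusted p of 0.0012 for SNHG6 and 0.0132 for SNHG8, and the SNHG6 difference was also called with no filter (adjusted p = 1.75e-06) and without OCI-AML2 vehicle library 3 (adjusted p = 0.000114). Without OCI-AML2 vehicle library 2 the differences were much smaller, -0.13 for SNHG6 (adjusted p = 0.058) and -0.095 for SNHG8 (adjusted p = 0.304). SNHG5, SNHG7 and SNHG16 had differences within 0.04 of 0, with SE of 0.06 to 0.08, and ZFAS1 had -0.31 ± 0.50. Without OCI-AML2 vehicle library 2, that of SNHG5 was 0.16 and called (adjusted p = 0.0213), and that of ZFAS1 was 0.19 (adjusted p = 0.332). The moves of hosts without that library include the median shift of 0.091 over all genes. In that fit 56.5% of the called differences over all genes were higher in MOLM-13.

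**Figure D3:**
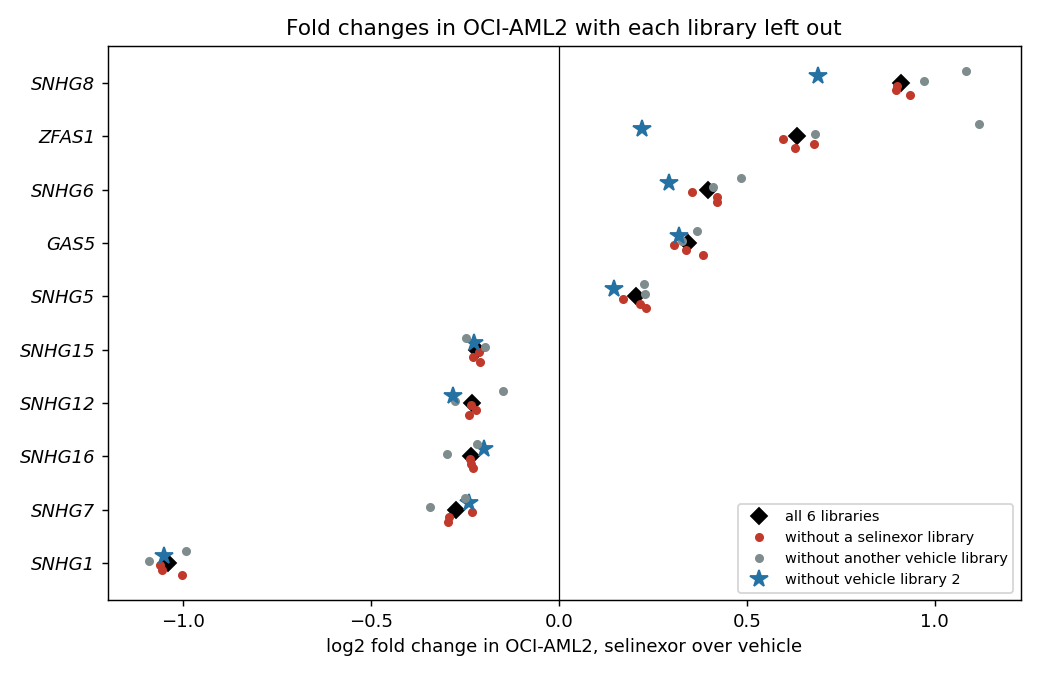
Log2 fold change of each host in OCI-AML2, selinexor over vehicle, from all 6 libraries (black diamonds) and with 1 library left out at a time (red, a selinexor library; grey, vehicle library 1 or 3; blue star, vehicle library 2). Leaving out vehicle library 2 brings ZFAS1 to 0.22, SNHG8 to 0.69 and SNHG6 to 0.29, while SNHG1 stays near -1.04.

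Levels also differed between the lines without drug. SNHG5 (1.995-fold, log2 fold change 1.00 ± 0.04, adjusted p = 1.01e-36) and SNHG16 (1.77-fold, 0.82 ± 0.04, adjusted p = 4.48e-30) were higher in OCI-AML2 vehicle than in MOLM-13 vehicle libraries. GAS5 (-0.86 ± 0.04, adjusted p = 1.68e-35), SNHG6 (-0.92 ± 0.08, adjusted p = 3.02e-06) and SNHG15 (-0.36 ± 0.08, adjusted p = 2.06e-05) were lower. The other 5 were not called, where 71.2% of tested genes were. Without OCI-AML2 vehicle library 2, SNHG6 had -0.77 (adjusted p = 3.1e-40), SNHG8 0.10 (adjusted p = 0.0627) and ZFAS1 -0.35 (adjusted p = 0.00244), against -0.15 for SNHG8 and -0.81 for ZFAS1 (adjusted p = 0.0763) with all libraries. ZFAS1 was also called without OCI-AML2 vehicle library 3 (-1.26, adjusted p = 0.00955). SNHG1, at 0.12 (adjusted p = 0.0813), was called without OCI-AML2 vehicle library 1 (0.20, adjusted p = 0.00645) or 2 (0.16, adjusted p = 0.0201) or MOLM-13 vehicle library 2 (0.17, adjusted p = 0.0252). Leaving out these libraries also shifted the vehicle comparison over all genes, by medians of 0.042, 0.040 and 0.039. Without OCI-AML2 vehicle library 3 that shift was 0.042. The vehicle groups did not overlap for 6 of the 10 hosts, the 5 called ones and ZFAS1, beside 72.7% of tested genes. For the 5 called ones, both groups of one line lay above both groups of the other. In the order of levels over the 4 groups, the libraries of the vehicle groups overlapped for SNHG1, SNHG7, SNHG8 and SNHG12, the selinexor groups overlapped for SNHG7, and OCI-AML2 selinexor overlapped its neighbours in that order for ZFAS1.

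Per kilobase of exon in GENCODE 29, the hosts spanned a wide range of levels. The length joins the exons of all annotated transcripts, and can hold bases absent from the spliced RNA. It covers 3756 of 3927 bases of SNHG1 and 4266 of 4595 of SNHG12, but 1247 of 4715 of SNHG6, so the order depends on it. SNHG6 had the highest value, at 257 CPM per kb in OCI-AML2 selinexor and 190 in OCI-AML2 vehicle libraries. In MOLM-13 it had 387 with selinexor and 358 with vehicle. By CPM alone, SNHG5 (460) and GAS5 (397) stood above SNHG6 (321) in OCI-AML2 selinexor libraries. SNHG12 had the lowest value per kb in each group, at 5.09 and 5.80 CPM per kb in OCI-AML2 selinexor and vehicle libraries. In MOLM-13 it had 7.19 with selinexor and 5.79 with vehicle. SNHG8, with 923 exonic bases, came second to SNHG6 in OCI-AML2 selinexor libraries at 243 CPM per kb, against 126 in OCI-AML2 vehicle libraries, where SNHG5 stood at 138. In MOLM-13, GAS5 came second, at 223 CPM per kb with selinexor and 152 with vehicle.

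Because strand was not kept, reads of genes that overlap a host cannot be told apart from it, and genes that start beside a host are given with them. SLC3A2, a subunit of an amino acid transporter, starts 188 bases from SNHG1 on the opposite strand. SLC3A2 had a log2 fold change of -0.13 ± 0.04 in OCI-AML2 (adjusted p = 0.00718) and -0.39 ± 0.04 in MOLM-13 (adjusted p = 2.42e-14). Its difference between the lines, -0.31 ± 0.06 (adjusted p = 1.55e-05), had the sign opposite to that of SNHG1. ZBTB37, a zinc finger protein gene, starts 800 bases from GAS5, and rose by 0.29 ± 0.10 in OCI-AML2 (adjusted p = 0.0111) and by 0.61 ± 0.10 in MOLM-13 (adjusted p = 8.85e-08).

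ZNFX1, a zinc finger helicase gene, shares 249 exonic bases with ZFAS1 on the other strand, and had -0.20 ± 0.07 in OCI-AML2 (adjusted p = 0.00735) and 0.19 ± 0.07 in MOLM-13 (adjusted p = 0.00858). DIPK1B, called FAM69B in the annotation, shares 1094 exonic bases with SNHG7, and like SNHG7 it fell in both lines (-0.57 ± 0.10, adjusted p = 4.51e-06, and -0.36 ± 0.13, adjusted p = 0.00942, in OCI-AML2 and MOLM-13). MCMDC2 shares 365 exonic bases with SNHG6 and had -0.01 ± 0.07 and -0.06 ± 0.08, neither called. TRNAU1AP shares 8 bases with SNHG12 and was not called either, with 0.19 ± 0.09 in OCI-AML2 and -0.10 ± 0.11 in MOLM-13. SNHG16 shares 1639 exonic bases with an annotated gene that was not tested here.

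Other snoRNA hosts were read from lists chosen by function. Of 20 other noncoding hosts, 10 were tested in OCI-AML2 and 9 in MOLM-13. They too split, with 1 higher and 4 lower in OCI-AML2 and 4 higher and 3 lower in MOLM-13, and medians of -0.13 and 0.08. Of all tested genes, 31.3% were called higher and 31.8% lower in OCI-AML2. In MOLM-13, 31.8% were called higher and 31.8% lower. SNHG29 rose in both lines (0.75 ± 0.04, adjusted p = 4.95e-18, in OCI-AML2 and 0.66 ± 0.03, adjusted p = 3.15e-39, in MOLM-13). SNHG17 fell in both (-0.49 ± 0.07, adjusted p = 3.86e-08, and -0.34 ± 0.09, adjusted p = 0.00175). SNHG32 rose by 0.54 ± 0.06 in MOLM-13 (adjusted p = 3.48e-14). In OCI-AML2 it had 36.4, 39.8 and 36.2 CPM with selinexor and 30.6, 13.1 and 32.8 CPM with vehicle, again lowest in vehicle library 2, and was not called (adjusted p = 0.289). SNHG3, singled out after its values were seen, had the same pair of directions as SNHG12 and SNHG15, with -0.40 ± 0.07 in OCI-AML2 (adjusted p = 6.16e-06) and 0.25 ± 0.07 in MOLM-13 (adjusted p = 0.00189) and a difference of 0.59 ± 0.10 (adjusted p = 1.51e-06).

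The protein-coding hosts among ribosomal protein genes moved nearly as one. Of 25 tested, 23 were higher and 1 lower in OCI-AML2 and 23 higher and 0 lower in MOLM-13, with median log2 fold changes of 0.43 and 0.44. The shares over all tested genes were 31.3% higher and 31.8% lower in OCI-AML2, and 31.8% higher and 31.8% lower in MOLM-13. RPL13 (0.61 ± 0.04, adjusted p = 6.34e-18) and RPL12 (0.55 ± 0.04, adjusted p = 6.56e-17) had the smallest p in OCI-AML2, and RPL23 (0.59 ± 0.03, adjusted p = 3.98e-35) and RPL4 (0.49 ± 0.03, adjusted p = 9.32e-32) in MOLM-13. Each of these rose in the other line too, RPL13 by 0.42 and RPL12 by 0.49 in MOLM-13 and RPL23 by 0.33 and RPL4 by 0.39 in OCI-AML2. The gene called lower in OCI-AML2 was RPSA (-0.10, adjusted p = 0.0167), named after its value was seen. Hosts among other protein-coding genes split, with 8 higher and 14 lower of 27 in OCI-AML2 and 12 higher and 13 lower in MOLM-13, beside the same shares over all tested genes. NCL, which encodes the nucleolar protein nucleolin, fell in both lines (-0.68 ± 0.04, adjusted p = 7.12e-20, in OCI-AML2 and -0.57 ± 0.03, adjusted p = 2.38e-33, in MOLM-13), as did PHB2, a prohibitin gene (-0.73 ± 0.04, adjusted p = 2.26e-19, and -0.31 ± 0.04, adjusted p = 7.06e-12). The translation factors EEF2 (0.40 ± 0.04, adjusted p = 2.14e-12, in OCI-AML2 and 0.58 ± 0.03, adjusted p = 1.06e-39, in MOLM-13) and EIF4A2 (0.68 ± 0.04, adjusted p = 6.08e-19, and 0.88 ± 0.04, adjusted p = 3.58e-38) rose in both.

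Genes for the proteins that snoRNAs bind moved in the other direction. Of 8 core proteins of snoRNA particles, 0 were higher and 6 lower in OCI-AML2 and 0 higher and 8 lower in MOLM-13, with medians of -0.35 and -0.36. NOP56, a core protein of box C/D particles and itself a host gene, had -0.61 ± 0.04 in OCI-AML2 (adjusted p = 1.96e-16) and -0.48 ± 0.04 in MOLM-13 (adjusted p = 2.27e-20). DKC1, the pseudouridine synthase of box H/ACA particles and also a host gene, had -0.55 ± 0.04 (adjusted p = 5.05e-15) and -0.49 ± 0.04 (adjusted p = 2.83e-18). Of 13 genes for assembly and transport of these particles, 9 were lower and 0 higher in each line. Beside both lists, 31.8% of all tested genes were called lower in each line. NOLC1, a nucleolar chaperone, had -0.70 ± 0.04 in OCI-AML2 (adjusted p = 7.47e-20) and -0.26 ± 0.03 in MOLM-13 (adjusted p = 1.58e-10). RUVBL1, an ATPase of the assembly machinery, had -0.46 ± 0.05 (adjusted p = 2.15e-11) and -0.44 ± 0.04 (adjusted p = 2.24e-15).

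Of 17 genes of nonsense-mediated decay and the exon junction complex, 0 were higher and 11 lower in OCI-AML2, and 3 higher and 10 lower in MOLM-13. The shares over all tested genes were 31.3% higher and 31.8% lower in OCI-AML2, and 31.8% higher and 31.8% lower in MOLM-13. MAGOHB, a core protein of the exon junction complex, had -0.78 ± 0.09 in OCI-AML2 (adjusted p = 7.98e-10) and -1.15 ± 0.09 in MOLM-13 (adjusted p = 2.13e-22), and RBM8A, its partner in that core, had -0.56 ± 0.05 in OCI-AML2 (adjusted p = 2.63e-13) and -0.40 ± 0.04 in MOLM-13 (adjusted p = 2.38e-16). SMG1, the kinase that phosphorylates UPF1, had 0.59 ± 0.05 in MOLM-13 (adjusted p = 2.47e-21) and 0.01 in OCI-AML2 (adjusted p = 0.923). Of 10 regulators of TOP mRNAs, 0 were higher and 8 lower in OCI-AML2 and 1 higher and 5 lower in MOLM-13, beside the same shares. MTOR, the growth-signal kinase, had -0.69 ± 0.06 in OCI-AML2 (adjusted p = 2.46e-13) and -0.13 ± 0.06 in MOLM-13 (adjusted p = 0.0595). LARP4, which binds poly(A) tails, had -0.63 ± 0.06 (adjusted p = 1.11e-12) and -0.15 ± 0.06 (adjusted p = 0.0218). EIF4EBP1, a translation repressor, had -0.43 ± 0.05 in OCI-AML2 (adjusted p = 9.91e-11) and -0.86 ± 0.04 in MOLM-13 (adjusted p = 5.66e-35). LARP1, which binds TOP sequences, had -0.38 ± 0.04 (adjusted p = 4.07e-11) and -0.27 ± 0.03 (adjusted p = 3.12e-11).

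**Figure D4:**
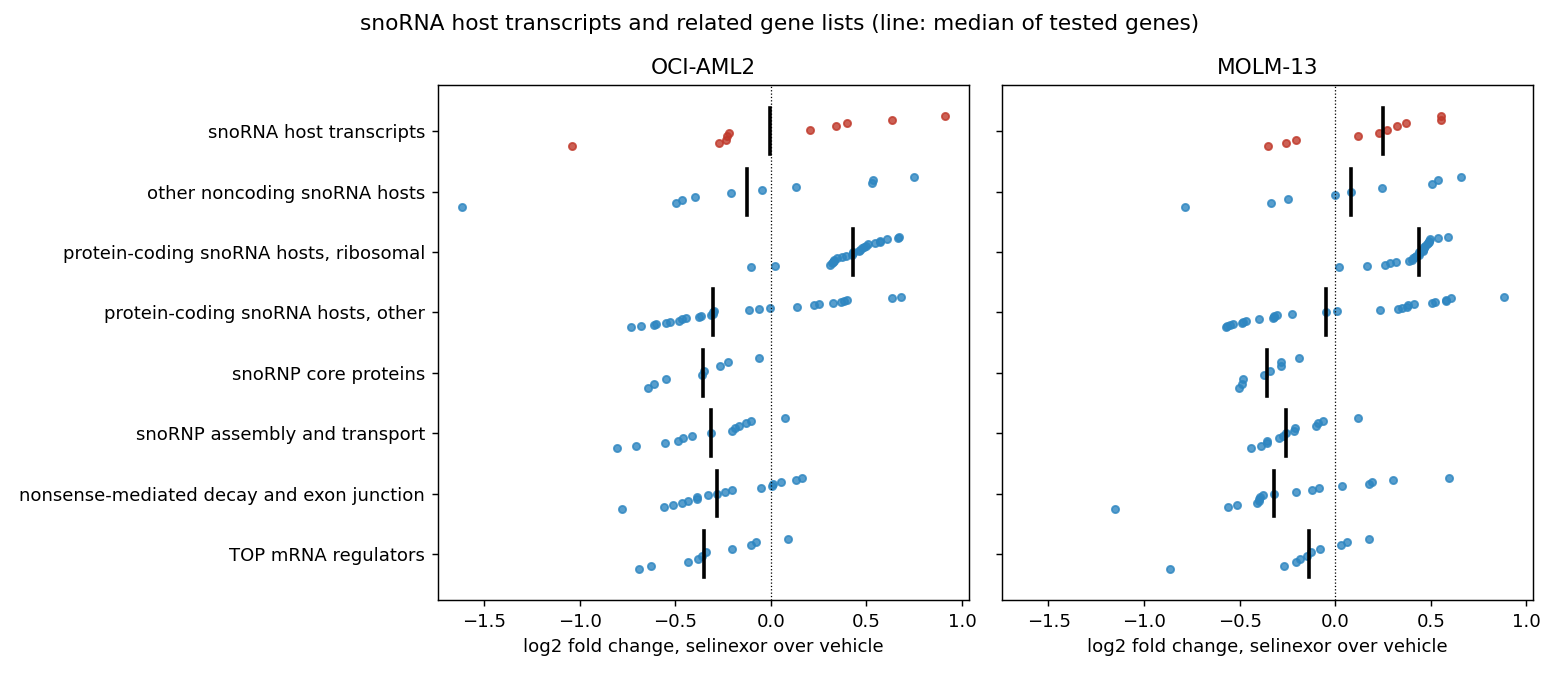
Log2 fold change, selinexor over vehicle, of every tested gene of the 10 hosts (red) and of 7 related lists (blue) in OCI-AML2 and MOLM-13, with black lines at the medians. The ribosomal protein hosts cluster around 0.43 and 0.44, the core proteins of snoRNA particles lie below 0 in both lines, and the 10 hosts lie on both sides.

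Finally, each host was set beside the gene whose levels over the 12 libraries were most like its own, by the root mean square difference of log2 CPM centred on each gene's mean, among 9458 genes. NACA, a ribosome-associated chaperone gene, was nearest to GAS5 (0.07), RPL10A, a ribosomal protein gene, to SNHG6 (0.06), and RPL21P28, a ribosomal protein pseudogene that may share reads with its parent gene, to ZFAS1 (0.15). The nearest to SNHG1 was RDH10, a retinol dehydrogenase gene (0.12), with log2 fold changes of -1.07 in OCI-AML2 and -0.49 in MOLM-13. ARSB, a lysosomal sulfatase gene, was nearest to SNHG15 (0.05), with log2 fold changes of -0.22 in OCI-AML2 and 0.25 in MOLM-13. For the others the nearest were ARHGEF6 (SNHG5, 0.08), PPP6R3 (SNHG7, 0.07), ATG10 (SNHG8, 0.12), MRPS25 (SNHG12, 0.11) and RNF167 (SNHG16, 0.06). Among the hosts themselves, a far smaller set to choose from, the closest pairs were GAS5 and SNHG6 (0.20) and SNHG12 and SNHG15 (0.20). These are values over 12 libraries in 4 groups, so lines and treatment shape them all. The nearest genes were chosen by these same levels, so fold changes like the host's follow from the choice and are no separate result.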

How the data were processed

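Paired-end, poly(A)-selected libraries that do not keep the strand were made from 12 cultures, per the labels. The submitters' processing notes name STAR, hg38, R 3.6.1 and DESeq2. The read counter and gene annotation are not given in these labels or file headers. For each line, the authors deposited whole-number counts per gene symbol, and for MOLM-13 a table of log2 fold changes with standard errors. The numbers given to libraries are those of the columns' order and serve as names only.

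The counts were tested with edgeR 4.0.16 in R 4.3.3 (TMM, filterByExpr with minimum count 10 and minimum total 15, robust quasi-likelihood fit, adjusted p under 0.05 over all tested genes), each line alone. The interaction and the vehicle comparison used all 12 libraries and the genes in both tables. Printed CPM use TMM over the 12 libraries. SE was taken as the log2 fold change over the root of F. P-values measure the spread between these cultures.

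The members, lists and named genes were chosen with earlier results of these data known. Named were the 10 hosts, up to 2 genes per list and line with the smallest p, the nearest gene per host (mean CPM of at least 5 in both lines), overlapping or adjacent genes (starts within 1000 bases) and the snoRNA rows with most reads. Positions are from GENCODE 29 (GRCh38), start sequences from RefSeq. The fits were tested on simulated data with few changed genes, the same spread for every gene and no outlying library, unlike these data. That test cannot show how the fits behave under the conditions met here. Alternatives were other scalings, no filter, DESeq2 1.42.0, limma 3.58.1 voom, a joint fit and leaving out each library.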

Additional observations from a re-analysis of the deposited data

Results flagged for a closer look

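The selinexor effect differed between the lines, by the interaction test of edgeR, for 4 of the 10 hosts, beside 30.1% of all tested genes, in each case with the higher value in MOLM-13. The differences of log2 fold change, MOLM-13 minus OCI-AML2, were 0.64 for SNHG1 (adjusted p = 3.08e-08), 0.51 for SNHG12 (adjusted p = 0.00396), 0.40 for SNHG15 (adjusted p = 0.00303) and 0.16 for GAS5 (adjusted p = 0.017). The dose was 75 nM in MOLM-13 and 200 nM in OCI-AML2, and the effect of the line and that of the dose cannot be told apart.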

How the results depend on the processing

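No paired analysis was possible because the columns carry no replicate numbers. Of 864 alternative values over hosts and lists, 795 counted as the same. For a host's own value this meant the same direction and side of the threshold. For a count of called genes it meant only a count within 1.5 times of the main one, so single calls could change. Of the rest, 26 lost the call, 13 gained it, 29 changed sign and 1 count moved by over 1.5 times. Hosts called in OCI-AML2 numbered 7 to 10 under other scalings, filters and tools and 6 to 9 with 1 library left out, against 9. In MOLM-13 they numbered 8 to 10 and 9 to 10, against 10. For the difference between lines they numbered 4 to 6 and 3 to 5, against 4, and between vehicle groups 5 to 6 and 5 to 7, against 5. Called noncoding hosts of the list of 20 numbered 4 in MOLM-13 without selinexor library 3, and 6 without any other single library, against 7. The changes of sign were all of values that were not called, and the cause was not tested. For the difference between lines (MOLM-13 minus OCI-AML2), SNHG7 gave 0.0013 with DESeq2's size factors, 0.024 with upper quartile scaling, 0.039 with library size only and 0.00081 with DESeq2's test, and SNHG16 gave 0.018, 0.041, 0.056 and 0.018. With 1 library left out, that difference ranged from -0.073 to 0.12 for SNHG7, from -0.041 to 0.13 for SNHG16, from -0.011 to 0.16 for SNHG5 and from -0.71 to 0.19 for ZFAS1. These ranges include the fits in which the difference over all genes shifted, as given above. For OCI-AML2 vehicle over MOLM-13 vehicle, upper quartile scaling gave -0.0098 for SNHG7 and -0.017 for SNHG12, and no filter gave -0.00078 for SNHG12. With 1 library left out, that comparison ranged from -0.047 to 0.12 for SNHG12 and from -0.29 to 0.10 for SNHG8. At 7.91 to 55.2 CPM per library, ZFAS1, SNHG12 and SNHG15 rest on the fewest counts of the hosts.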
